A study of Rattus norvegicus with 10 samples.

Results

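The peroxisome proliferator-activated receptor alpha gene (Ppara) and 7 of its known target genes were followed in liver RNA from 10 male rats, 13 weeks of age. The members were chosen by name. They comprised every probe set that the platform's gene table gives to Ppara, Cpt1a, Ehhadh, Cyp4a1, Pdk4, Acot1, Vnn1 or Angptl4 and to no other gene. This gave 10 of the 31042 probe sets tested, with a pair each for Cpt1a and Pdk4 and 1 for each other gene. The 5 rats of the N-group were fed for 30 days on chow in which instant noodle with its seasonings made up 30 wt% and fat supplied 26% of energy. The 5 rats of the C-group were fed likewise, but with the seasonings omitted. Noodle, fat and the paired ration (60 g/kg/day) were thus common to both groups. Each liver was measured on 1 array, and the labels name no strain.

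PPAR alpha is a nuclear receptor that is activated by fatty acids. With its partner RXR it binds a direct repeat of the letters AGGTCA with 1 spacer base, known as DR1, and in the rodent liver it raises genes of fatty acid uptake, oxidation, ketogenesis and lipid droplets. Its messenger level also has a daily rhythm in liver. Its activity depends on ligands as well as on its own amount, so the levels of its targets and of its messenger are separate readouts.

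The values are log2 signals, in which 87.0% of probe sets hardly moved over the 10 livers, with an SD at or under 0.01 log2 units. The other 4050 probe sets are called varying. Of the members, 9 probe sets varied and that of Acot1 was near-constant. Hepatocyte markers had list means between 12.77 and 12.90 and brain markers between 6.23 and 6.36, near the array medians of 6.47 to 6.48, although the extraction text speaks of brain. Albumin (Alb) stood at 14.34 in every liver and was near-constant, as were other bright genes such as Fabp1 (13.07) and Cat (12.98). Whether the authors' processing made such values flat was not tested, so near-constant is not read here as stable expression. By the labels' array codes all N-group livers lay in row A and all C-group livers in row B, so that array row and diet cannot be told apart in any diet difference below. C-group animal 11 lay outside the range of the other controls in 9 of 10 varying clock genes, a share not counted over all varying genes. The diet differences of Ppara and Cyp4a1 and the r of targets with Ppara are given with and without this animal. Other diet differences include it unless stated.

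RefSeq windows of 250 bases upstream of the gene start (assembly GRCr8) were available for 6 of the 8 members, and Cyp4a1 and Vnn1 were not matched. They were searched on both strands for the DR1 repeat (a pair of AGGTCA with any 1 base between) with up to 2 mismatches, for AGGTCA, for the clock element CACGTG and for TTATGTAA, the D-box read by Dbp. A DR1 match may overlap one to AGGTCA alone. None of the 6 windows held any of these motifs, and 3.15% of all 33469 windows held the DR1 repeat, 14.1% AGGTCA, 5.59% CACGTG and 0.828% TTATGTAA. The windows of the receptor gene and of Cpt1a, the member with the largest diet difference, are shown in lower case because they hold no match. That of Ppara lies at chr7:118712357-118712606 on the plus strand and has 76.0% G and C. That of Cpt1a lies at chr1:209995910-209996159 on the plus strand and has 45.6% G and C.
Ppara: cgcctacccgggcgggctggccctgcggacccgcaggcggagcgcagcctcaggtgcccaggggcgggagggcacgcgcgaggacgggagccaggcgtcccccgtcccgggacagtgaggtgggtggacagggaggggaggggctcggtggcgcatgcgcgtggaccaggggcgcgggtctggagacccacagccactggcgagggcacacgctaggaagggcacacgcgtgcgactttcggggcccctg
Cpt1a: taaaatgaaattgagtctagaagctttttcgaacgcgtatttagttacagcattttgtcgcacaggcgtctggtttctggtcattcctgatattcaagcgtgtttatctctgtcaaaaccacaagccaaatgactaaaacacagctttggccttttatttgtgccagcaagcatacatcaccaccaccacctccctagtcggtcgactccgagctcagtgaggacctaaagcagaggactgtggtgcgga

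Among the other genes of the pathway, 70 had a window and 11 of these (15.7%) held the DR1 repeat with up to 2 mismatches. This is a share of genes, some with several windows, while the 3.15% above is a share of windows. In 5 of the 11 genes a single base differed from the repeat, a share not counted over all windows. These 5 are shown for their receptor motif, with the match in capitals, read 5′ to 3′ on the strand of the gene. Fabp1, the liver fatty acid binding protein, has it at chr4:104749253-104749285 on the plus strand, where the match starts at position -77 from the gene start. Acadvl, a mitochondrial acyl-CoA dehydrogenase, has it at chr10:55236706-55236732 on the minus strand. Of the acyl-CoA thioesterases, Acot8 has it at chr3:173962189-173962220 on the minus strand, Acot4 at chr6:109399831-109399853 and Acot12 at chr2:24721844-24721876, both on the plus strand. A match is a description of letters and was not tested as a binding site.
Fabp1: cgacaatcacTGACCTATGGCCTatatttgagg
Acadvl: acgggagaagAGGTCAGTGGTCAaggc
Acot8: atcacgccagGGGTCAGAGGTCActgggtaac
Acot4: cccagaagccAGACCTCTGACCT
Acot12: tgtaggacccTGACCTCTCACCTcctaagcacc

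The first comparison asked whether the seasonings changed these genes. Cpt1a, the gatekeeper of fatty acid entry into mitochondria, had the largest difference of the members, with lower signals in the N-group in both of its probe sets. The other 5 varying targets and Ppara itself differed by less than 0.2 log2 units in either direction. By limma with Benjamini-Hochberg adjustment over all probe sets, 0 of the 10 member probe sets passed an adjusted p of 0.05, as did 0 of all probe sets (0%). At an unadjusted p under 0.05 the count was 3 of 10 probe sets, against 4.48% of all (1390 probe sets) and 12.5% of varying ones. The 3 were the pair of Cpt1a and the near-constant Acot1, and for the other 7 the exact two-sided permutation p ran from 0.262 to 1.0. Only the Cpt1a pair were varying probe sets that were lower with the N-group diet at this level, as were 5.85% of varying probe sets. The groups overlapped in all 10 member probe sets, while they did not overlap in 0.77% of all and 2.99% of varying probe sets. These arrays are of whole liver, where fewer cells of a type and less RNA per cell cannot be told apart.

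**Figure D1:**
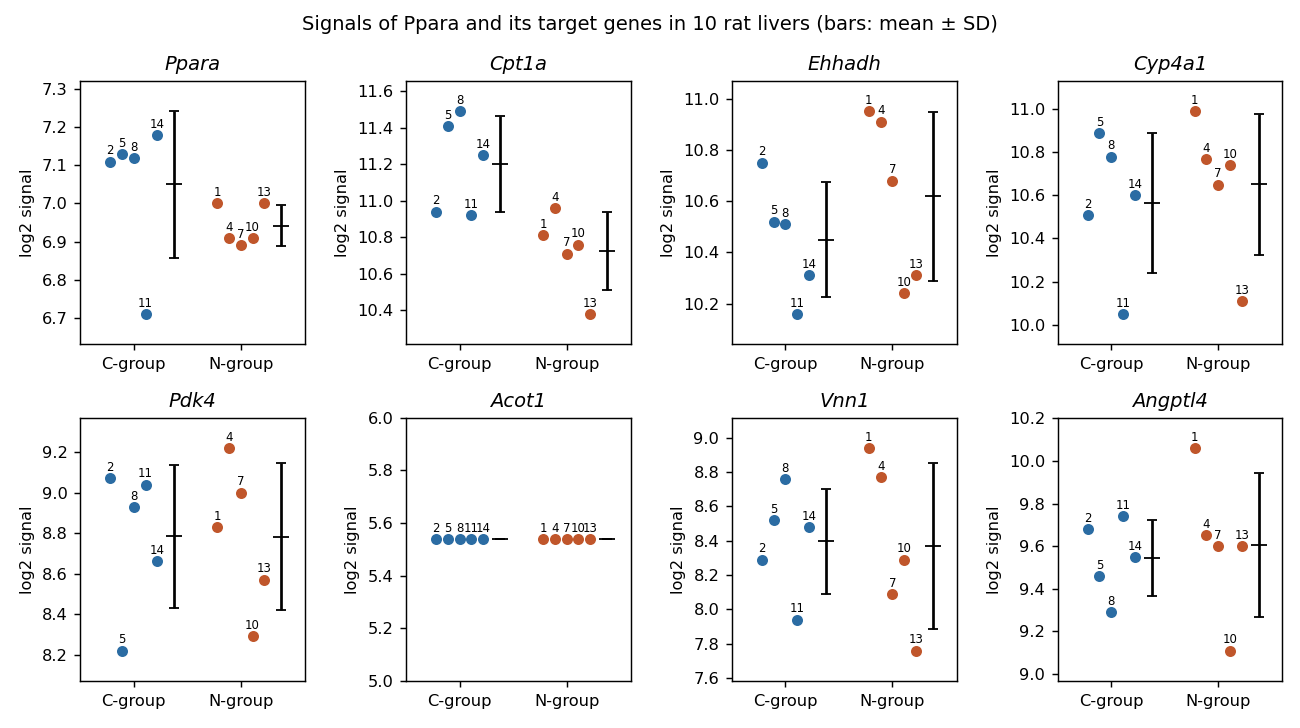
Log2 signal (vertical axes) of each member's probe set of highest mean in the 5 C-group and 5 N-group livers, numbered by animal, with the mean and SD as bars. Axes differ between panels. The N-group points of Cpt1a lie mostly below those of the C-group, animal 11 is the lowest control for Ppara, and Acot1 is flat at 5.54.

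Ppara was measured by 1 probe set, at a low signal. In the N-group it was 7.0 in animal 1, 6.91 in animal 4, 6.89 in animal 7, 6.91 in animal 10 and 7.0 in animal 13. In the C-group it was 7.11 in animal 2, 7.13 in animal 5, 7.12 in animal 8, 6.71 in animal 11 and 7.18 in animal 14. So 4 controls lay above every N-group liver and the control animal 11 lay below all of them. The group means were 6.94 ± 0.05 (SD, n = 5) and 7.05 ± 0.19, a difference of -0.11 ± 0.09 (SE), with an unadjusted limma p of 0.239 and an exact two-sided permutation p of 0.262. Split by animal number, the difference was -0.19 in animals 1 to 7 and -0.05 in animals 8 to 14, which include animal 11. The former set is N-group animals 1, 4 and 7 with C-group animals 2 and 5. The latter is N-group animals 10 and 13 with C-group animals 8, 11 and 14. Differences within these small sets are given here and below without an SE and were not tested.

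Control animal 11 decided this value. Without it the difference was -0.19, the groups no longer overlapped, and the unadjusted limma p was 0.000228, with an adjusted p of 0.181. The other 4 controls already lay above every N-group liver, so leaving this animal out was bound to part the groups. That p depends on the choice of the liver with the lowest Ppara and is no separate test of the diet. Without this animal 6.35% of varying probe sets did not overlap, 14.6% of them had an unadjusted p under 0.05, and 10 of all probe sets (0.0322%) passed the adjusted threshold, none of them a member. Of 11 clock genes measured, 10 varied, and this animal lay outside the other 4 controls in 9 of them. The exception was Cry1, a clock repressor, at 7.05 in it and between 6.86 and 7.13 in the other controls. Per1 was near-constant at 7.17. How often this animal lay outside the other controls over all varying genes was not counted, so the 9 do not set the clock genes apart. Dbp, a clock output factor, was at 7.28 in it, against 9.08 to 9.43 in the other 4 controls and 5.94 to 7.05 in the N-group. Bmal1, the clock activator, was at 6.90 in it, against 6.08 to 6.24 in the other controls and 6.92 to 7.74 in the N-group. The part of the clock in the Ppara difference was not tested.

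Cpt1a encodes the liver form of carnitine palmitoyltransferase 1, which commits long-chain fatty acids to mitochondrial oxidation. In the probe set with the higher mean the N-group signals were 10.81, 10.96, 10.71, 10.76 and 10.38 in animals 1, 4, 7, 10 and 13. The C-group signals were 10.94, 11.41, 11.49, 10.92 and 11.25 in animals 2, 5, 8, 11 and 14. Only N-group animal 4 reached into the control range, just above control animals 2 and 11. The means were 10.72 ± 0.22 (SD, n = 5) and 11.20 ± 0.26, so controls were 1.39-fold higher, a log2 difference of -0.48 ± 0.15 (SE). The unadjusted limma p was 0.0113, the adjusted p 0.850, and the exact two-sided permutation p 0.0238. With any 1 liver left out the difference ran from -0.55 to -0.39.

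The other Cpt1a probe set gave the same picture. Its signals were 8.55 to 9.0 in the N-group, with a median of 8.84, and 8.95 to 9.55 in the C-group, with a median of 9.38. The difference was -0.49 ± 0.13, with an unadjusted limma p of 0.00583, an adjusted p of 0.778 and an exact permutation p of 0.0159. Centred on the diet means, the pair of probe sets had a Pearson r of 0.972 over the 10 livers, as repeat measures of 1 transcript. In animals 1 to 7 and in animals 8 to 14 the higher probe set differed by -0.35 and -0.65, and the other by -0.42 and -0.61. In a fit of varying probe sets alone, where 0.321% (13 probe sets) passed, the Cpt1a pair had adjusted p of 0.163 and 0.122 by limma.

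**Figure D2:**
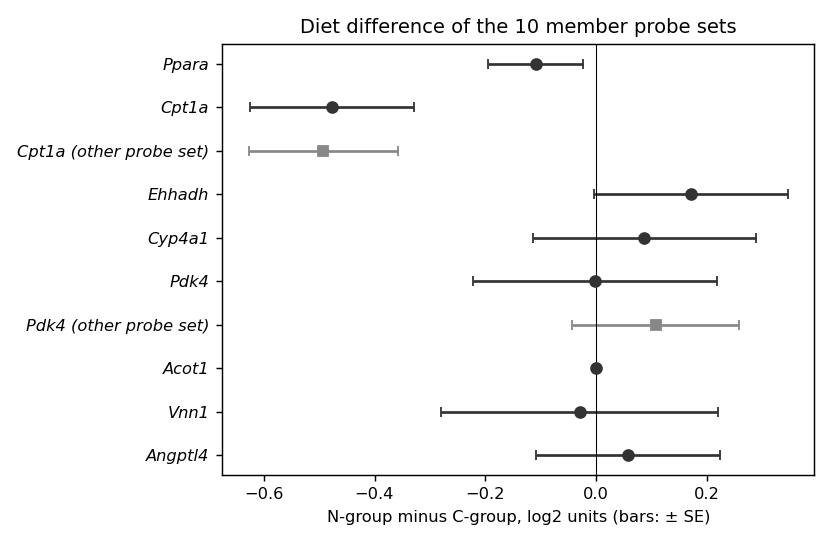
Difference of the group means, N-group minus C-group, in log2 units (horizontal axis) for the 10 member probe sets, with bars of 1 SE from limma (5 livers per group). Squares mark the other probe set of Cpt1a and of Pdk4. Both Cpt1a probe sets lie near -0.5 and the rest within 0.2 of zero.

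Ehhadh, the peroxisomal bifunctional enzyme of fatty acid oxidation, was at 10.95, 10.91, 10.68, 10.24 and 10.31 in N-group animals 1, 4, 7, 10 and 13. In C-group animals 2, 5, 8, 11 and 14 it was at 10.75, 10.52, 10.51, 10.16 and 10.31. The ranges overlapped almost wholly, with a difference of 0.17 ± 0.17 (SE, 5 livers per group). Higher animal numbers went with lower Ehhadh in both diets.

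With the diet means subtracted, Ehhadh and animal number had a Pearson r of -0.893 (exact within-diet permutation p = 0.00194, adjusted p = 0.0136 over 7 relations). Spearman rho was -0.911 (exact p = 0.00139, adjusted p = 0.00973), and r was -0.922 once the 2 most extreme animal numbers were dropped. None of the other 6 varying members had an adjusted p under 0.2 for this relation, with r of -0.596 for Cyp4a1, -0.594 for Vnn1 and -0.151 for Ppara. The labels' array codes rise with animal number within each diet, so that animal order and array position cannot be told apart. The median r with animal number over 2612 varying genes was -0.441, so that a negative relation was common on these arrays. Within animals 1 to 7 and animals 8 to 14 of each diet, r for Ehhadh was -0.676 (exact permutation p = 0.111), so the relation was not established inside those sets. The diet difference of Ehhadh was 0.21 in animals 1 to 7 and -0.05 in animals 8 to 14.

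Cyp4a1 encodes a microsomal cytochrome P450 that hydroxylates fatty acids at their omega end. Its signals were 10.99, 10.77, 10.65, 10.74 and 10.11 in N-group animals 1, 4, 7, 10 and 13, and 10.51, 10.89, 10.78, 10.05 and 10.60 in C-group animals 2, 5, 8, 11 and 14. Each group held a single low liver, N-group animal 13 and C-group animal 11. The difference was 0.09 ± 0.20 (SE), and without control animal 11 it was -0.04.

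Vnn1, vanin 1, is a pantetheinase that releases cysteamine. It was at 8.94, 8.77, 8.09, 8.29 and 7.76 in N-group animals 1, 4, 7, 10 and 13, and at 8.29, 8.52, 8.76, 7.94 and 8.48 in C-group animals 2, 5, 8, 11 and 14. The N-group spread (SD 0.48, n = 5) was wider than that of the C-group (SD 0.31), a contrast that was not tested. The difference was -0.03 ± 0.25 (SE), and it was 0.19 in animals 1 to 7 but -0.37 in animals 8 to 14. The lowest livers were the same pair as for Cyp4a1.

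Pdk4, the kinase that switches off pyruvate dehydrogenase and spares glucose, was at 8.83, 9.22, 9.0, 8.29 and 8.57 in N-group animals 1, 4, 7, 10 and 13. In C-group animals 2, 5, 8, 11 and 14 it was at 9.07, 8.22, 8.93, 9.04 and 8.66. The low livers here were N-group animal 10 and C-group animal 5, neither of them low for Cyp4a1 within its group. The difference was -0.0011 ± 0.22 (SE), and 0.11 ± 0.15 in the other probe set, which followed it with an r of 0.947 over the diet-centred livers. Within animals 1 to 7 and animals 8 to 14 the difference was 0.37 and -0.45.

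Angptl4 encodes a secreted inhibitor of lipoprotein lipase. It was at 10.06, 9.65, 9.6, 9.11 and 9.6 in N-group animals 1, 4, 7, 10 and 13, and at 9.68, 9.46, 9.29, 9.74 and 9.55 in C-group animals 2, 5, 8, 11 and 14. N-group animals 1 and 10 held the highest and the lowest signal of all 10 livers. The difference was 0.06 ± 0.17 (SE), or 0.20 in animals 1 to 7 and -0.17 in animals 8 to 14.

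Acot1, a cytosolic thioesterase that splits acyl-CoA, was at 5.54 in every liver, below the array medians. Its difference of -0.0002 log2 units had an unadjusted limma p of 0.00961 and no measurable size, so no fold is given. A further probe set is assigned to Acot2 and Acot1 together and is no member. It was near-constant as well, at 6.88 in every liver. Acot2 and Acot1 are close paralogs, and Acot2 alone varied at 8.82 ± 0.20 (SD, n = 5) in the N-group and 8.77 ± 0.15 in the C-group.

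The next question was whether the targets followed Ppara from liver to liver. None of the 7 relations passed the permutation test. Each value was taken as the distance from its diet mean, so that the diet difference plays no part. Pearson r was 0.536 for Cyp4a1 (exact within-diet permutation p = 0.146), 0.424 for Vnn1 (p = 0.156), 0.370 for Cpt1a (p = 0.5) and 0.333 for Ehhadh (p = 0.319). It was 0.321 for the near-constant Acot1 (exact p = 0.455), -0.352 for Pdk4 (p = 0.319) and -0.145 for Angptl4 (p = 0.635). Adjusted over the 7 relations the smallest p was 0.546.

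Spearman rho was 0.273 for Cyp4a1, 0.248 for Vnn1, 0.321 for Cpt1a, 0.018 for Ehhadh and 0.382 for Acot1. It was -0.552 for Pdk4 and -0.297 for Angptl4. The exact permutation p for these ranks ran from 0.0769 (Pdk4) to 0.966, and every adjusted p was 0.511 or higher. Ranks and values thus gave the same signs, and none passed.

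The positive values of 4 targets rested on control animal 11, the liver with the lowest Ppara. Without it r was -0.251 for Cyp4a1, -0.012 for Vnn1, -0.275 for Cpt1a and -0.188 for Ehhadh, and that of Angptl4 turned to 0.449. The near-constant Acot1 kept a positive r of 0.197 without this animal. Without the 2 livers farthest from the median of Ppara, control animals 11 and 14, r was -0.210 for Cyp4a1, 0.005 for Vnn1, -0.280 for Cpt1a, -0.062 for Ehhadh, -0.286 for Pdk4, 0.167 for Acot1 and 0.455 for Angptl4. Leaving out N-group animal 13, which was low for Cpt1a, Cyp4a1 and Vnn1 and not for Ppara, moved r of the same 4 targets the other way. It was then 0.878 for Cyp4a1 and 0.667 for Vnn1, both with an adjusted p of 0.0752 by exact permutation. For Cpt1a it was 0.581 and for Ehhadh 0.460. Spearman rho for Cyp4a1 was 0.833 in this run, with an adjusted exact permutation p of 0.0632. Pdk4 kept a negative r in each of these, and the adjusted permutation p of its Pearson r was 0.372 or higher in each alternative run. For its Spearman rho the smallest adjusted permutation p was 0.116, without N-group animal 13 (rho -0.617).

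**Figure D3:**
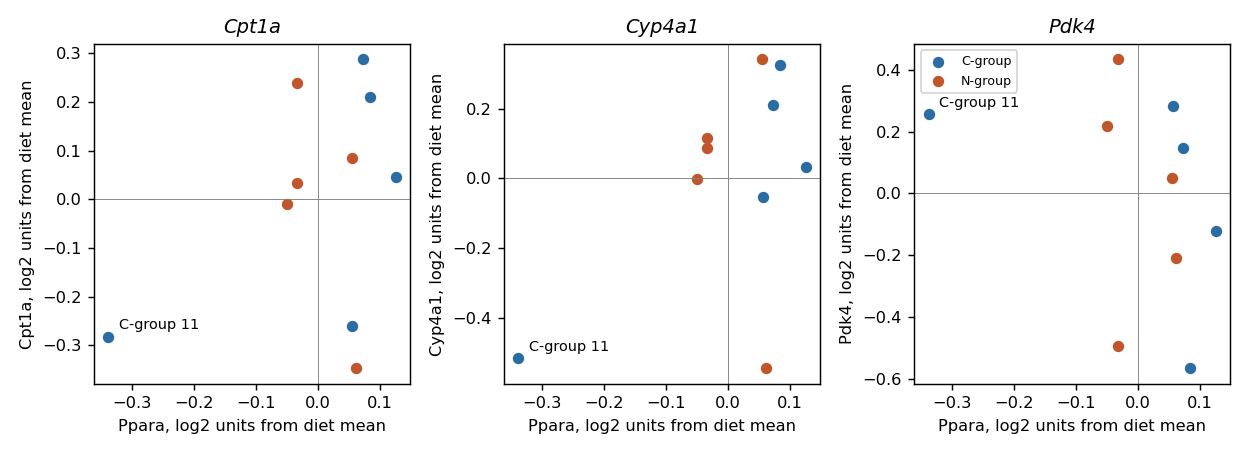
Log2 signal of Cpt1a, Cyp4a1 and Pdk4 (vertical axes) against that of Ppara (horizontal axis), each as the distance from the mean of its diet, with 1 point for each of the 10 livers. C-group animal 11 lies alone at -0.34 for Ppara, and the other 9 livers lie between -0.05 and 0.13.

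Several targets instead varied together. Over the diet-centred livers Cpt1a, Cyp4a1 and Vnn1 had Pearson r of 0.857 (Cpt1a and Cyp4a1), 0.828 (Cpt1a and Vnn1) and 0.877 (Cyp4a1 and Vnn1). With any 1 liver left out these stayed between 0.779 and 0.920, 0.740 and 0.912, and 0.802 and 0.911. Without N-group animal 13 and C-group animal 11 together they were lower, at 0.673, 0.621 and 0.731. Ehhadh was less close, with 0.679 to Vnn1, 0.601 to Cyp4a1 and 0.399 to Cpt1a, and without both animals these were 0.449, 0.193 and -0.062. Pdk4 and Angptl4 had r between -0.287 and 0.126 with Cpt1a, Cyp4a1 and Vnn1. They had r of 0.5 and 0.518 with Ehhadh and of 0.499 with each other, and without N-group animal 10 these fell to 0.298, 0.231 and 0.180. Without N-group animal 13 and C-group animal 11 together they were instead 0.685, 0.818 and 0.468. Which targets were closest thus depended on the livers included. These correlations are descriptions over 10 livers on shared arrays. N-group animal 13 and C-group animal 11 were low for all 3 of Cpt1a, Cyp4a1 and Vnn1, at -0.35, -0.55 and -0.61 and at -0.28, -0.52 and -0.46 log2 units from their diet means. Ppara was at 0.06 in the former and at -0.34 in the latter.

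**Figure D4:**
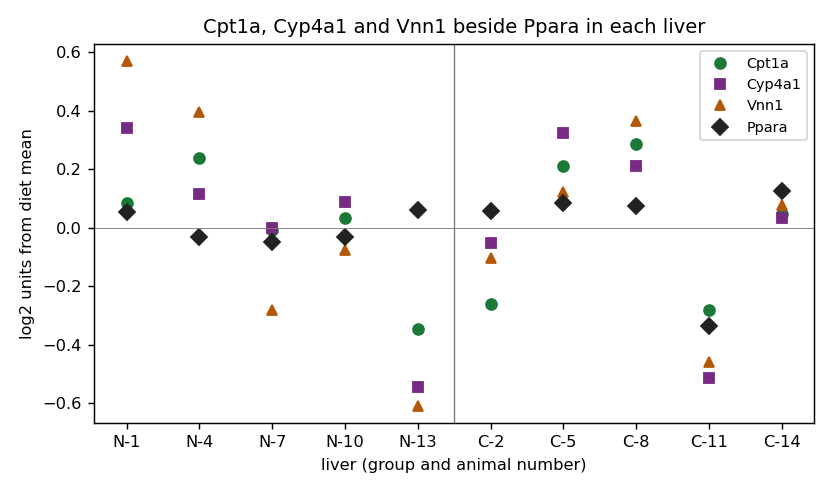
Log2 units from the diet mean (vertical axis) of Cpt1a, Cyp4a1, Vnn1 and Ppara in each liver (horizontal axis, group and animal number, with a line between the diets). The 3 targets are low in N-group animal 13 and C-group animal 11, and Ppara is low in the latter alone.

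Many other genes of fatty acid handling moved with Cyp4a1 across the livers. Among 45 other pathway genes that varied in their probe set of highest mean, the median r with Cyp4a1 was 0.704. Over 2611 varying genes it was 0.427. Above an r of 0.8 were 17 of the 45 (37.8%), beside 232 (8.89%) of all varying genes. The closest was its paralog Cyp4a3 at 0.981, and sharing of probes between the Cyp4a paralogs was not tested. It was followed by the carnitine transporter Slc22a5 (0.963), the peroxisome proliferation factor Pex11a (0.955), the thioesterase Acot2 (0.953), the fatty acid transporter Slc27a2 (0.951) and Cpt2, the inner partner of Cpt1a (0.947). These spanned transport, mitochondria and peroxisomes. The lowest were Cyp4a8 (-0.649), a Cyp4a paralog, and Lpl (-0.622), Apoa1 (-0.493), Scd (-0.396) and Plin2 (-0.358) of the lipid droplet, lipoprotein and hormone list. That list was mixed, with 8 of its 13 varying genes positive, 5 negative and a median r of 0.258, and its highest were Creb3l3 (0.799) and Pnpla2 (0.798). All 6 thioesterases, 6 uptake genes, 5 mitochondrial and 6 peroxisomal genes that varied were positive, with medians of 0.811, 0.758, 0.813 and 0.866. So were the 4 receptor partners and cofactors, with a median of 0.388, and 4 of 5 microsomal genes, with a median of 0.822. A positive r was common, with a median of 0.427 over all varying genes, so the sign alone does not set these lists apart. Slc22a5, Scd, Lpl, Creb3l3 and Pnpla2 fall outside the rule for naming genes and were picked after their values were seen.

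Part of this rested on the livers low for Cyp4a1. Without N-group animal 13 and C-group animal 11 the medians were 0.381 for the 45 genes and 0.232 for all varying genes, and 11 of the 45 (24.4%) stayed over 0.8, beside 49 (1.88%) of all. Of the genes closest over all livers, Cyp4a3 was then at 0.914, Cpt2 at 0.878, Pex11a at 0.875, Acot2 at 0.861, Slc22a5 at 0.830 and Slc27a2 at 0.782. Of the members Vnn1 was at 0.731, Cpt1a at 0.673 and Ehhadh at 0.193, and Cyp4a8 was at -0.253. With Ppara the 45 genes had a median r of 0.407, beside 0.301 for all varying genes, and -0.102 beside -0.079 without control animal 11. Without N-group animal 13, and with control animal 11 kept, these medians were 0.596 and 0.390. Over the 9 livers other than animal 11, Ppara lay only between -0.05 and 0.13 log2 units from its diet mean. With so narrow a range, r over those livers cannot decide whether the closeness to Cyp4a1 had a counterpart in the Ppara messenger.

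**Figure D5:**
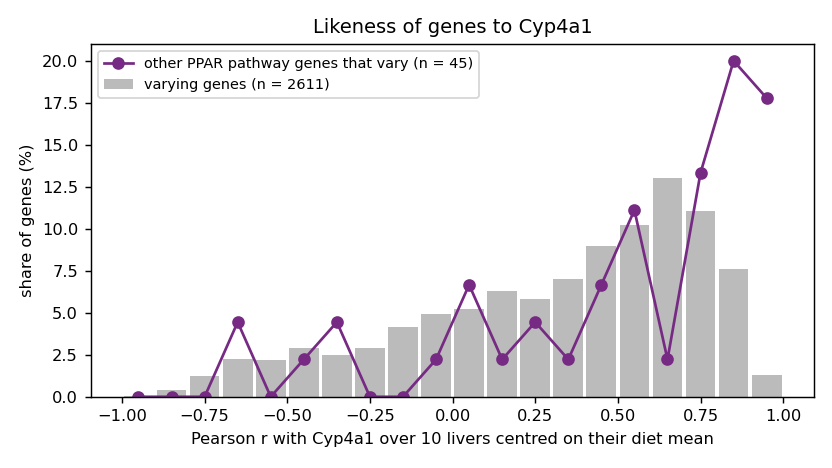
Share of genes in percent (vertical axis) by Pearson r with Cyp4a1 in bins of 0.1 (horizontal axis), over 10 livers centred on their diet mean. Grey bars are 2611 varying genes and points are 45 other pathway genes that varied, of which 37.8% lie above 0.8, beside 8.89% of the former.

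By diet, the rest of the pathway showed as little as the members. Of 93 genes listed, 83 were measured and 45 varied in their probe set of highest mean. Hadh, Mgll, Ppargc1a, Ncor1 and Crebbp varied only in a further probe set and are not among the 45. Over all genes tested 0 rose and 0 fell at an adjusted p under 0.05 by limma. At an unadjusted p under 0.05 there were 6 higher with the N-group diet (Ppard, Acsl3, Acot3, Plin2, Apoa1 and the near-constant Plin5) and 1 lower (Por), 8.43% in all, beside 4.8% of all named genes. Among varying genes this was 6 of 45 (13.3%), beside 11.8% of all varying named genes. The median difference of the 45 was 0.00 log2 units, with 23 higher and 22 lower, and that of all varying named genes 0.02.

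Of 17 receptor partners and cofactors measured, 4 varied in the probe set of highest mean. Others varied only in a further probe set. These were Ppargc1a (differences of -0.09 ± 0.21 and -0.03 ± 0.15), Ncor1 (0.33 ± 0.18) and Crebbp (0.04 ± 0.11). Ppard, the sister receptor PPAR delta, had the largest difference, at 8.48, 8.19, 8.60, 6.95 and 7.32 in N-group animals 1, 4, 7, 10 and 13 and at 6.70, 6.98, 6.97, 6.90 and 6.68 in C-group animals 2, 5, 8, 11 and 14. The 3 N-group animals of low number stood high, and animal 10 lay within the control range. The difference was 1.06 ± 0.33 (SE, limma adjusted p = 0.850), and it measured 1.58 in animals 1 to 7 but 0.28 in animals 8 to 14. The corepressor Nrip1 and the partner Rxrg, next by p, were near-constant at 7.53 and 7.94.

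Of 11 genes of uptake, binding and activation, Acsl3, an acyl-CoA synthetase, differed by 0.46 ± 0.18 (limma adjusted p = 1.0), or 0.74 in animals 1 to 7 and 0.04 in animals 8 to 14. Slc27a2 differed by -0.11 ± 0.08, and Slc27a1 was near-constant at 7.09. Among 13 mitochondrial and ketogenic genes, Cpt2 had the smallest p and, like Cpt1a, a lower signal in the N-group, at 9.24 ± 0.19 (SD, n = 5) against 9.47 ± 0.20, a difference of -0.24 ± 0.12 (SE, limma adjusted p = 1.0). Etfdh and Acadl, further oxidation enzymes, were near-constant at 10.24 and 11.42. Pex11a had the largest difference of 12 peroxisomal genes, at 0.42 ± 0.22 (limma adjusted p = 1.0), and 0.30 ± 0.20 in its other varying probe set. Eci2 and Acot8 were near-constant at 10.34 and 7.54.

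In the microsomal group of 5, Por, the electron donor of the cytochromes P450, differed by -0.53 ± 0.21 (limma adjusted p = 1.0) and by -0.29 ± 0.15 in its other probe set. Its C-group values were 8.43, 8.51, 8.54, 7.41 and 8.08 in animals 2, 5, 8, 11 and 14, against 7.53 to 7.82 in the N-group, so that control animal 11 alone lay below the N-group. Cyp4a3 differed by 0.18 ± 0.22 and Cyp4a8 by -0.33 ± 0.19. Of the 6 thioesterases Acot3 differed by 0.17 ± 0.06 (limma adjusted p = 0.935), Acot12 by -0.18 ± 0.11 and Acot4 by 0.09 ± 0.17.

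Of 19 genes of lipid droplets, lipoproteins and hormones, Apoa1, the chief apolipoprotein of HDL, was the single pathway gene without overlap, as were 2.72% of varying named genes. It ranged from 12.20 to 12.45 in the N-group and from 11.88 to 12.17 in the C-group, a difference of 0.23 ± 0.07 (limma adjusted p = 0.850). Plin2, the droplet coat protein perilipin 2, ranged from 11.04 to 11.60 and from 10.61 to 11.21, a difference of 0.41 ± 0.15 (limma adjusted p = 0.954). Plin5 was near-constant, with a difference of 0.0008.

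The varying genes most like Ppara over the diet-centred livers were named by their Pearson r among 2612 genes. Highest were Cep19 (0.975), Srsf4 (0.927), Dsp (0.924), Shld2 (0.920) and Usp2 (0.912). Lowest were Cimip4 (-0.962), Slc6a6 (-0.929), Col5a2 (-0.899), Tra2b (-0.872) and Col4a1 (-0.871). None of the targets that varied was among them, and Cyp4a1 ranked 528 from the top. The near-constant Acot1 was not ranked. Dbp had an r of 0.818 and Bmal1 one of -0.617. Without control animal 11 these fell back to 0.144 for Dbp and 0.001 for Bmal1, to 0.720 for Cep19 and to 0.190 for Srsf4, and that of Slc6a6 became 0.096.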

How the data were processed

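Total RNA of each liver (100 ng) was made into biotin-labelled cRNA, per the labels' protocols. Per the deposited table, each array has a log2 signal for every probe set, taken as log2 from its range of 4.79 to 14.34. The authors' summary and normalization steps are not given in the sources used here. Detection calls were not used, and precision is limited by how many arrays there are. The 57 control probe sets among 31099 were dropped. The platform table gave 20826 probe sets 1 gene, 436 several and 9780 none, and symbols were updated by gene identifier for 20758 through the GRCr8 gene table. A gene with several probe sets was represented by the one of highest mean signal.

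Groups were compared with limma 3.58.1 in R 4.3.3 (two-sided, Benjamini-Hochberg over all 31042 probe sets, threshold 0.05), a fit checked on simulated data. The exact permutation test of single members used 252 assignments, whose smallest p is 0.00794, for 10 probe sets without adjustment. Relations used exact permutation within the diets (14400 pairings). Animals carry separate numbers, so the spread is between rats. Pairwise array correlations lay between 0.990 and 0.998, with 0 identical pairs.

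The members, gene lists and alternatives were chosen with earlier results of these data known. Named were all members, the 3 genes of each list with the smallest p, the 5 genes most and least like Ppara, Dbp, Bmal1, Alb and the Cyp4a and Acot paralogs.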

Additional observations from a re-analysis of the deposited data

Results flagged for a closer look

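Among 90 groups of 5 livers, for 43 named genes and the other probe sets of Cpt1a and Pdk4, in 11 the extreme liver was separated from the next by over 0.71 of the whole range. By chance about 1 in 20 groups would be so marked, which makes 4.5 for independent groups. These are not independent: the genes most like Ppara were named through a relation that control animal 11 dominates. Control animal 11 was the liver in 10 of the 11. It was low for Ppara (ratio 0.8498), Cep19 (0.7925), Srsf4 (0.7112), Shld2 (0.8407), Usp2 (0.7765) and Dbp (0.8336), and high for Cimip4 (0.9399), Slc6a6 (0.8356), Col5a2 (0.7646) and Bmal1 (0.8058). N-group animal 4 was high for Cimip4 (0.7519). No target of Ppara was among these.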

How the results depend on the processing

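No member probe set or gene was called, and no relation to Ppara passed, in any alternative run. Over all probe sets the count of 0 called became 13 in the fit of varying probe sets alone, between 0 and 10 with 1 liver left out (10 without control animal 11), and 15 without that animal with animals 1 to 7 against 8 to 14 as a block, which was added after seeing the data. At an unadjusted p under 0.05 the main count of 1390 was 556 after median centring, 654 after quantile normalization and 2878 with array weights. The differences of Ppara (-0.19 to -0.05) and Cpt1a (-0.65 to -0.35) kept their sign in all 24 alternatives each. So did Acot1 (22 alternatives). The other probe set of Pdk4 kept its sign in 20 alternatives (0.0081 to 0.20), but these left out the split by animal number. In that split its sign turned, with -0.14 among animals 8 to 14 against 0.33 among animals 1 to 7. The differences of 5 genes turned in at least 1 alternative. Pdk4 was 0.098 with array weights, 0.038 with the block without animal 11, 0.37 within animals 1 to 7 and -0.14 to 0.12 with 1 liver left out. Vnn1 was 0.0099 with array weights, 0.19 within animals 1 to 7 and -0.17 to 0.12 with 1 liver left out. Angptl4 was -0.17 within animals 8 to 14 and -0.056 to 0.18 with 1 liver left out. Cyp4a1 was -0.052 within animals 8 to 14, -0.064 with the block without animal 11 and -0.042 to 0.22 with 1 liver left out. Ehhadh was -0.047 within animals 8 to 14. The cause was not tested. Relations to Ppara that turned were those of Cpt1a (-0.280 without the 2 livers farthest from its median, -0.275 to 0.581 with 1 left out), Ehhadh (-0.062, and -0.188 to 0.460), Cyp4a1 (-0.210, and -0.251 to 0.878), Angptl4 (0.455, and -0.337 to 0.449) and Vnn1 (-0.012 to 0.667 with 1 left out).

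The groups share no animal numbers. With adjacent numbers taken as pairs in a replicate block, 0 probe sets were called, 1666 had an unadjusted p under 0.05, and Cpt1a differed by -0.48 (limma adjusted p = 0.880). The deviations of 4 of the 5 such pairs correlated between 0.116 and 0.195 and those of animals 10 and 11 at -0.006, so that pairing is not established. Arrays with no detection calls cannot show how far the near-constant values lie above background, and bright genes such as Alb were near-constant as well.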
